A study of Canis lupus familiaris with 51 samples.

Results

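The genes described here are the keratins, the desmosome proteins and the claudins in canine cutaneous mast cell tumors (MCTs), together with a few other epithelial genes. Members were chosen by a rule on names, set with earlier results of these data known: every array probe that the scanner files name KRT, DSG, DSC, PKP or CLDN with a number, or JUP, SFN, TP63, DSP, IVL, LOR, FLG or CDH1. This gave 53 of the 43603 non-control probes, for 34 of the 35619 distinct names in the files. RNA of 51 MCTs was measured on one-color arrays, with 1 array per tumor analysed here. The tumors came from 30 female and 19 male dogs, with no sex given for 2, and 49 dogs had an age, from 3 to 14 years. The breeds with over 2 tumors were Crossbred (14), Boxer (9) and Labrador Retriever (9). All 51 samples carry the same tissue label, MCT, with no normal skin beside them, and each was a piece of whole tissue cut from the middle of the mass. The histological or molecular class of a tumor is not among the labels, so classes were not analysed here, and the 51 tumors were described as 1 group and compared by sex, breed and age.

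Keratins are the intermediate filaments of epithelial cells. In skin, KRT5 and KRT14 fill the dividing basal layer of the epidermis, KRT1, KRT10 and KRT2 replace them as cells move upward, and KRT7, KRT8, KRT18 and KRT19 belong to simple and glandular epithelia. Desmosomes join neighboring keratinocytes through cadherins (DSG and DSC), which plakoglobin (JUP), plakophilins (PKP) and desmoplakin tie to the keratin filaments, while claudins seal tight junctions. A mast cell tumor grows in the dermis or subcutis, so that a sample can hold overlying epidermis, hair follicles and skin glands in any amount. In such bulk RNA, fewer cells of a type and less RNA per cell cannot be told apart.

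Each probe is a stretch of 60 bases. The following probes are printed because the results turn on them: the suprabasal keratin KRT1, the glandular keratin KRT7, a KRT5 probe within the main cluster of KRT5 probes (probe 3) and another that behaved differently (probe 5), and the pair of KRT19 probes. Sequences run 5′ to 3′ as the scanner files give them. The positions are those of the files, without a named genome build.
KRT1, chr27:5430687-5430746, plus strand: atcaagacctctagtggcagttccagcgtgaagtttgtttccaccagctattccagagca
KRT7, chr27:5823246-5824940, minus strand: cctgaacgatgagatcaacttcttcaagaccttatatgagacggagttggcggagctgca
KRT5 probe 3, chr27:5576713-5576772, plus strand: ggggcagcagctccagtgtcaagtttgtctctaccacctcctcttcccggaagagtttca
KRT5 probe 5, chr27:5544320-5544379, plus strand: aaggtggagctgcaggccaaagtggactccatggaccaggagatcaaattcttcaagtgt
KRT19 probe 1, chr9:24564148-24564207, plus strand: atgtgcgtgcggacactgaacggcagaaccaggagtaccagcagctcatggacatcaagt
KRT19 probe 2, chr9:24564148-24564207, minus strand: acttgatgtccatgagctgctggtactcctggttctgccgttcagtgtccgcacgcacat

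The interval given for KRT7 is longer than the probe itself. The KRT19 probes are reverse complements of the same bases. KRT5 probe 5 lies 31.6 kb from the nearest of the other KRT5 probes, whereas probes 3 and 4 share 52 bases. Keratins of the same type resemble each other, and how far each probe also binds the RNA of a related keratin was not tested.

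Levels are log2 intensities after quantile normalization, so that 1 unit is a factor of 2. Between 59.4% and 74.8% of the spots on an array were well above background by the scanner software, and the dimmest level that was still above background lay between 1.73 and 4.26, depending on the array. Of the 53 member probes, 45 had a signal well above background in 5 or more tumors, 1 in none, and 0 were saturated on any array. A tumor had between 19 and 46 member probes above background. The share of spots above background on the array correlated with some members, with r = 0.48 for DSG3, 0.47 for KRT18 and 0.45 for JUP. For KRT12 r was -0.03 and for CLDN19 -0.41. No fit held this share as a covariate, and the cause was not tested. Of 12 mast cell genes listed, 5 had a probe above background on at least 5 arrays. CMA1 (chymase), MS4A2 and FCER1A (chains of the IgE receptor) stayed between 13.9 and 17.9 in all 51 tumors. HPGDS ran from 10.37 to 14.66, and CTSG from 3.74 to 7.58, above background in 36 tumors. Levels of different probes are not compared, since each probe binds its target with its own efficiency.

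The members varied far more than most probes. Their SD over the 51 tumors had a median of 1.499 over the 34 genes, against 0.51 over all probes, and 17 of the 53 member probes had an SD over 3 (32.1%), against 222 of all probes (0.51%). The spread was very uneven within the family, from keratin probes not above background in some tumors and among the brightest signals in others to claudins that hardly moved.

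**Figure D1:**
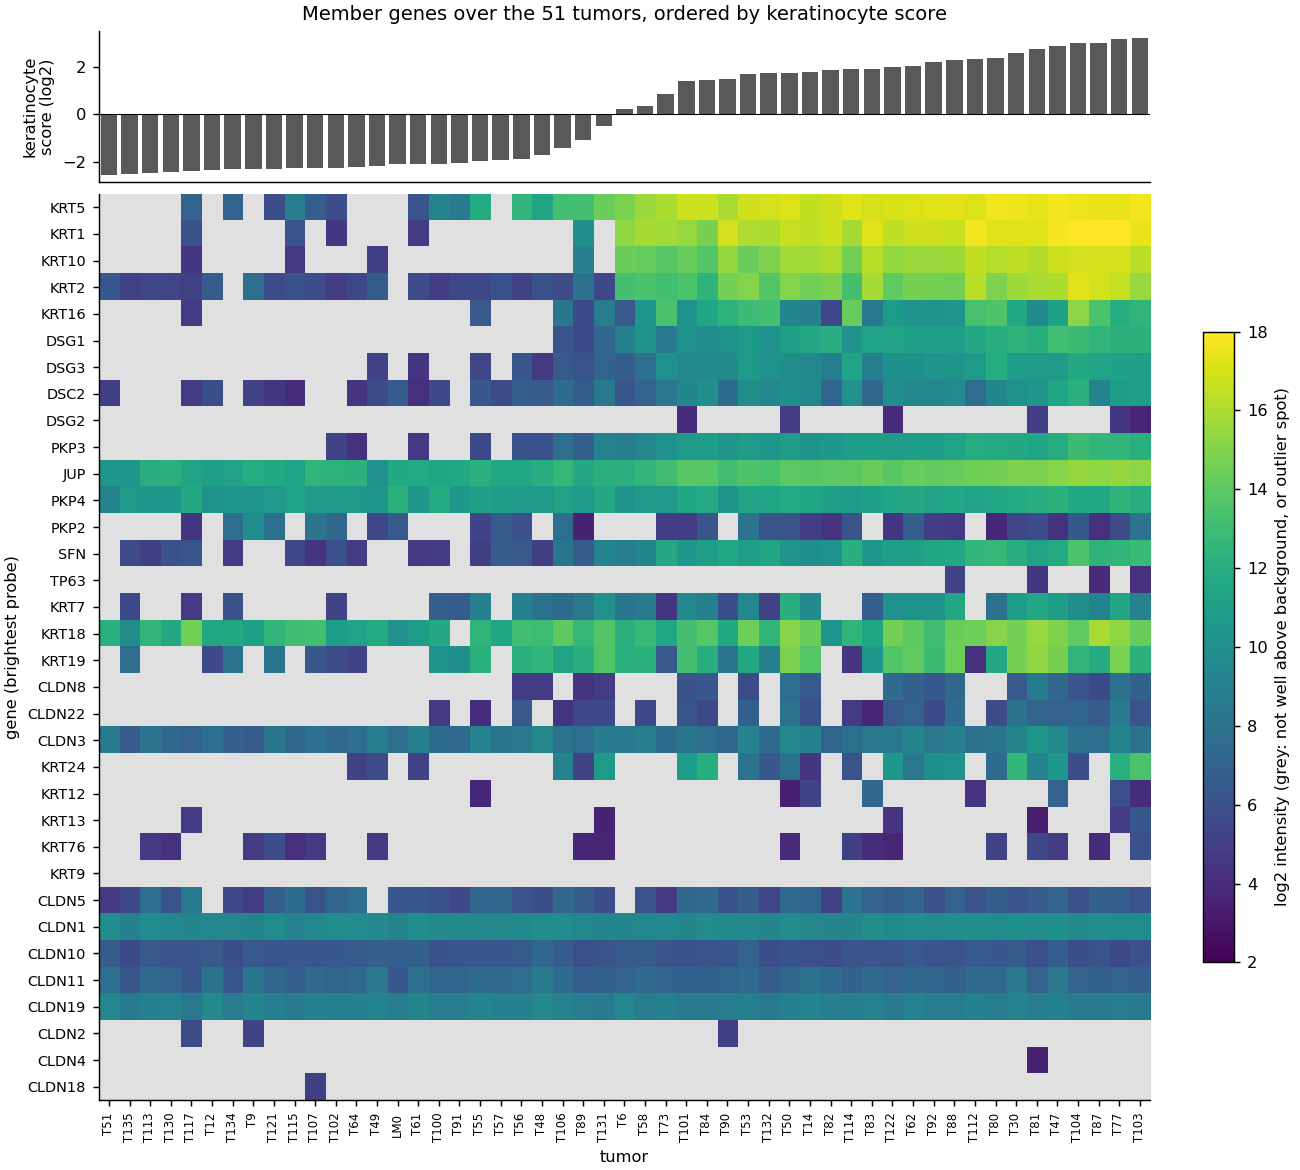
Log2 intensity of the brightest probe of each of the 34 member genes (rows) in the 51 tumors (columns), ordered by keratinocyte score, which the bars at the top give. KRT5, KRT1, KRT10, KRT2, DSG1, DSG3 and PKP3 brighten from left to right, KRT7, KRT19 and KRT24 are patchy, and JUP, PKP4, CLDN1, CLDN3, CLDN10, CLDN11 and CLDN19 are above background in all 51 tumors.

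To follow keratinocyte genes over the tumors without using the members, a keratinocyte score was built from 26 other keratinocyte genes, such as ITGB4 on the basement membrane side, TGM1, EVPL and SBSN of the upper layers, and the regulators GRHL1 and OVOL1. The score is the mean of their log2 levels, each gene centred over the tumors but not scaled. The 11 differentiation genes alone ran from -3.49 (T107) to 4.19 (T103), the 6 basement membrane genes from -1.92 (T12) to 1.97 (T114). The score thus weighs the upper layers more and is not a measure of the amount of keratinocyte RNA. The whole score ran from -2.58 to 3.20 with a median of 0.21, and was not spread evenly: 24 tumors lay under -1, 23 over 1 and 4 in between (T131, T6, T58 and T73). Tumors under -1 and over 1 stood side by side on 10 of the 15 slides and in 6 of the 9 scan sessions.

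Over the 51 tumors, 35 of the 53 member probes, from 21 genes, rose with the keratinocyte score and 0 fell (limma slope, Benjamini-Hochberg adjusted p under 0.01). Of all probes 15% were called, 3084 rising and 3443 falling. The median slope was 0.35 log2 units per unit of score over the members and -0.03 over all probes. Since the scores bunch at both ends, the slope was also fitted within each end. Among the 23 tumors over 1, 17 member probes of 9 genes were called (1.22% of all probes), namely KRT1, KRT2, KRT5, KRT10, DSG1, DSG3, PKP3, JUP and SFN, all rising. Among the 24 tumors under -1, 3 were called, KRT5 probes 2, 3 and 4 (0.0367% of all probes). There 20 of the 53 member probes had an unadjusted p under 0.05, as had 1630 of the 43603 probes. DSG1 (2.47 ± 0.44, adjusted p = 0.017) and DSG3 (3.63 ± 0.73, adjusted p = 0.046) rose without passing, while KRT2 had a slope of 0.84 ± 0.53. Many members, such as DSG1, were not above background in most of these tumors, which limits this fit.

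**Figure D2:**
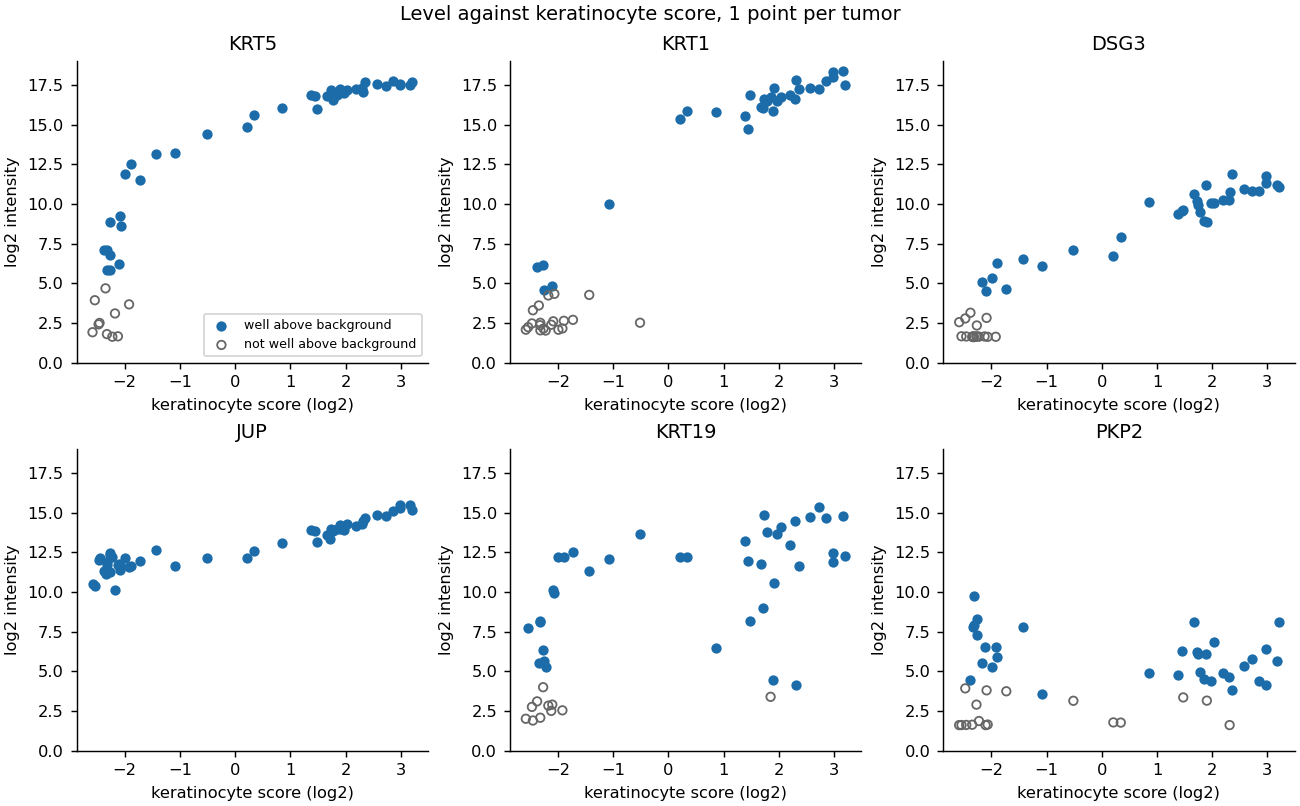
Log2 intensity (vertical axis) of 6 member genes against the keratinocyte score (horizontal axis), 1 point per tumor, with open circles where the probe was not well above background. KRT5 climbs already among the lowest scores, KRT1 jumps between the low and the high scores, DSG3 and JUP rise more steadily, KRT19 is scattered and PKP2 shows no trend.

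KRT5, the keratin of the basal layer, ranged from 1.63 to 17.75 with a median of 14.83 and was above background in 41 tumors. Its slope was 2.48 ± 0.16 (SE, n = 51) log2 units per unit of score (limma, adjusted p = 1.72e-18). KRT5 was already at 11.49 in T48 and 14.44 in T131, tumors in which KRT1 was not above background, and was highest in T47 (17.75), a tumor with a high score. Of the 20 tumors without KRT1 above background, 10 had KRT5 above it, and no tumor had KRT1 without KRT5.

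KRT1 and KRT10, keratins of the suprabasal layers, had the largest SDs of all members. KRT1 ranged from 2.02 (T64) to 18.35 (T77) with a median of 14.71, KRT10 from 1.59 to 16.99 with a median of 13.69, and KRT2, a keratin of the upper living layers, from 3.68 to 17.28 with a median of 12.41. The tumors fell on either side of a gap, with KRT1 at 6.18 or less in 24 tumors, at 10.02 in T89 alone and at 14.71 or more in the other 26. Slopes were 3.07 ± 0.12 for KRT1 (limma, adjusted p = 8.01e-28), 3.04 ± 0.11 for KRT10 (adjusted p = 6.42e-29) and 2.14 ± 0.07 for KRT2 (adjusted p = 1.56e-30). KRT1 and KRT10, which pair in the same filament, were both above background in 29 tumors and both not above it in 19. These counts rest on the member probe of KRT10. Another probe, described as epithelial keratin 10 but not named KRT10, was above background in all 51 tumors, from 12.02 to 18.09. It rose by 1.13 ± 0.04 (limma, adjusted p = 1.00e-31). Absence of keratin 10 RNA therefore cannot be read from the member probe. KRT1, KRT10, KRT5, KRT2 and DSG1 had the 5 largest SDs of the member genes, from 6.87 for KRT1 to 4.56 for DSG1. KRT9, a keratin of palms and soles, was not above background in any tumor.

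KRT16, which keratinocytes switch on when wounded or proliferating, was above background in 31 tumors and ranged from 2.02 to 15.24 with a median of 8.29. It rose with the score by 1.90 ± 0.12 (limma, adjusted p = 4.26e-19). At high scores it was not uniform: it reached 15.24 in T104 and 14.29 in T114, but 5.49 in T82, where KRT1 stood at 16.76.

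Of the desmosomal cadherins, DSG1, the desmoglein of the upper epidermis, ranged from 1.81 to 13.13 (median 8.60) and DSG3, that of the lower layers, from 1.60 to 11.89 (median 7.12). They rose by 2.09 ± 0.05 (limma, adjusted p = 2.23e-36) and 1.71 ± 0.07 (adjusted p = 1.24e-26). DSC2, a desmocollin found in most epithelia, was above background in 44 tumors, more than DSG1 (29) or DSG3 (34), and ranged from 1.87 to 12.16 (median 7.20) with a slope of 1.10 ± 0.07 (adjusted p = 5.82e-18). In 14 tumors DSC2 was above background where KRT1 was not. DSG2, the desmoglein of simple epithelia, was above background in 6 tumors, at most 4.90, with a slope of 0.23 ± 0.04 (adjusted p = 6.83e-05), so that its level was set by the background in most tumors.

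The plaque proteins behaved in different ways. PKP3, present in all living layers of the epidermis, ranged from 1.75 to 12.97 (median 9.13) and rose by 1.83 ± 0.08 (limma, adjusted p = 8.40e-27). JUP, which serves both desmosomes and adherens junctions, was never under 10.11. On that base it rose to 15.47 in T77, with a slope of 0.64 ± 0.03 (adjusted p = 3.96e-23), and all 5 JUP probes were called. PKP4, a plakophilin relative found at adherens junctions of many cell types, lay between 9.13 and 12.40 in all tumors, with a slope of 0.18 ± 0.03 (adjusted p = 7.05e-05). PKP2, the plakophilin of simple epithelia and heart, stood apart: it was above background in 34 tumors and ranged from 1.61 to 9.76 (median 4.78), yet its slope of 0.13 ± 0.14 did not pass (adjusted p = 0.51). Its highest level was in T9, where KRT1 was not above background, and it was not above background in 7 tumors that had KRT1.

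SFN, the 14-3-3 sigma protein of stratified epithelia, ranged from 3.08 to 13.46 (median 9.25) and rose by 1.47 ± 0.06 (limma, adjusted p = 1.50e-27). TP63, the transcription factor that sets up stratified epithelium, had 1 probe, above background in 4 tumors (at most 5.29). Its slope of 0.29 ± 0.04 (adjusted p = 2.04e-07) therefore rests on few measured levels.

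The keratins of simple and glandular epithelia followed the score more loosely. KRT18 was above background in all 51 tumors, from 9.90 to 15.93 (median 12.93), and rose by 0.45 ± 0.08 (limma, adjusted p = 1.41e-05). KRT7 ranged from 2.05 (T114) to 12.07 (T50) with a median of 6.90, and rose by 0.89 ± 0.16 (adjusted p = 2.31e-05). KRT19 ranged from 1.90 to 15.35 (T81) with a median of 10.54, and rose by 1.28 ± 0.23 (adjusted p = 1.82e-05). The SEs of KRT7 and KRT19 are larger than that of KRT1 although their slopes are smaller, that is, tumors of the same score differed widely in both.

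KRT7 and KRT1 were not always above background together. Both were above background in 26 tumors and neither in 11. KRT7 alone was above it in 9 tumors (T48, T55, T56, T91, T100, T106, T131, T134 and T135) and KRT1 alone in 5 (T61, T82, T112, T114 and T115). Such counts are not particular to KRT7 and depend on where each probe passes background. Without KRT1, KRT2 was above background in 18 tumors, DSC2 in 14, KRT19 in 13 and KRT10 in 1. KRT1 and KRT2 nevertheless correlated with r = 0.98. In T131, KRT7 was at 10.10 and KRT19 at 13.65 with KRT1 at 2.51, while in T112 KRT1 was at 17.81 with KRT7 at 3.19 and KRT19 at 4.17. KRT7 and KRT19 themselves were above background together in 34 tumors.

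**Figure D3:**
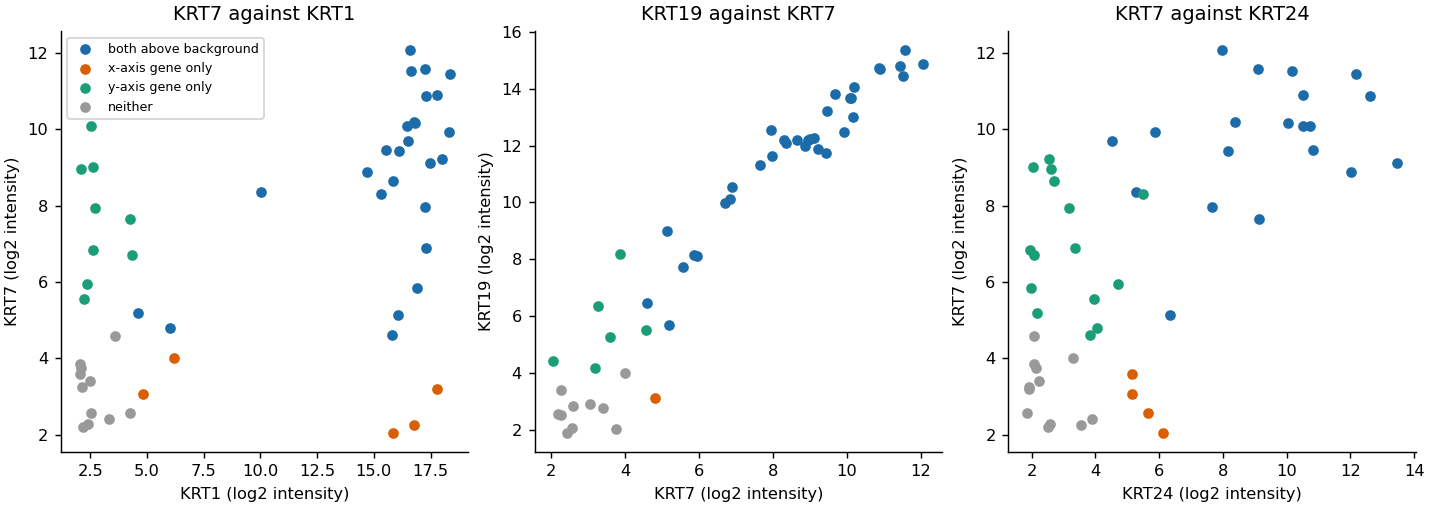
Log2 intensities of KRT7 against KRT1, KRT19 against KRT7 and KRT7 against KRT24, 1 point per tumor, colored by which of both genes was well above background. KRT19 and KRT7 lie along a line, whereas KRT7 spans nearly its whole range both where KRT1 is low and where it is high.

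The slope on the KRT7 level was also fitted over all probes with the keratinocyte score held as a covariate, a comparison chosen after its values were seen. Of the 52 other member probes 7 rose with KRT7 and 0 fell, against 3.04% of all probes called. They were both KRT19 probes, CLDN22, CLDN8, KRT18, DSG2 and CLDN3. KRT19 rose by 1.33 ± 0.07 log2 units per log2 unit of KRT7 (limma, adjusted p = 9.12e-21), CLDN22 by 0.52 ± 0.05 (adjusted p = 2.53e-10), CLDN8 by 0.44 ± 0.06 (adjusted p = 3.42e-07) and KRT18 by 0.25 ± 0.06 (adjusted p = 0.0036). None of the epidermal keratins KRT1, KRT2, KRT5, KRT10 or KRT16 was called. They were not alike, however. With the score taken out, r with KRT7 was 0.46 for the brightest KRT5 probe. It was -0.20 for KRT1, -0.25 for KRT2, -0.21 for KRT10 and -0.03 for KRT16. Of the genes outside the family, the smallest p-values in this fit belonged to AZGP1, with a slope of 1.05 ± 0.06 (adjusted p = 1.27e-18), CCDC160, ABCC11, with 1.32 ± 0.10 (adjusted p = 1.48e-14), LRP2 and SPDEF. ABCC11 ranged from 1.78 to 15.22 and AZGP1 from 1.82 to 12.23 over the tumors. These genes were named by rank alone among probes with a gene symbol, and no gene list was tested in this fit.

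Among the keratins best known from mucosa and cornea, KRT24 had the widest range, from 1.85 to 13.46 (T103), with a median of 4.51, and was above background in 24 tumors. It rose with the keratinocyte score by 1.02 ± 0.18 (limma, adjusted p = 1.41e-05). With the score held as a covariate, 4 of the 52 other member probes rose with KRT24 and 0 fell, against 0.349% of all probes called, again a comparison chosen after its values were seen. The strongest was KRT5 probe 5, with a slope of 0.58 ± 0.05 (adjusted p = 4.81e-11), followed by DSG2, CLDN8 and KRT13. Among probes with a gene symbol that were not members, the smallest p belonged to a probe for the hair keratin KRT89. It rose by 0.50 ± 0.04 (adjusted p = 1.99e-14), followed by CCDC19 and BAMBI, again named by rank alone. KRT89 was above background in 14 tumors. The same fit for KRT16 called 0.0596% of all probes and 1 member probe, SFN, with a slope of 0.31 ± 0.05 (adjusted p = 0.0018), beside GJB2 and KLK6.

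KRT5 probe 5, printed above, ranged from 1.97 to 11.17 with a median of 4.30 and was above background in 25 tumors. Its correlation with the brightest KRT5 probe was 0.63 over the 51 tumors, against 0.94 to 0.98 for probes 2, 3 and 4. With KRT24 its correlation was 0.90. The name KRT5 is that of the scanner files, and whether probe 5 reads KRT5 RNA was not tested. The KRT19 probes, which read opposite strands of the same bases, correlated with r = 0.80, the plus-strand probe ranging from 1.90 to 15.35 and the minus-strand probe from 4.44 to 9.76. For 2 genes other probes of the gene correlated below 0.5 with the brightest: KRT24 probes 2 and 3 (0.03 and -0.03), which were above background in 4 and 1 tumors, and CLDN2 probe 2 (0.05), above background in 1 tumor.

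KRT12, of the corneal epithelium, was above background in 8 tumors, at most 7.29, and rose with the score by 0.35 ± 0.08 (limma, adjusted p = 7.50e-04). KRT13, of mucosal epithelia, was above background in 6 tumors, at most 6.39, and KRT76, of the palate, in 18, from 1.86 to 5.90. Neither passed the test (adjusted p = 0.031 and 0.70).

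The 11 claudins fell into distinct patterns. CLDN22 and CLDN8 rose with the keratinocyte score, by 0.79 ± 0.10 (limma, adjusted p = 2.06e-08) and 0.70 ± 0.10 (adjusted p = 6.03e-08). CLDN22 ranged from 1.65 to 8.56 and CLDN8 from 1.88 to 8.59, above background in 26 and 20 tumors. CLDN1, a claudin of the epidermal tight junction, was above background in all 51 tumors but lay only between 9.02 and 10.02, and its slope of 0.04 ± 0.02 did not pass (adjusted p = 0.035). CLDN3 ranged from 6.59 to 10.46, CLDN10 from 5.60 to 7.38, CLDN11 from 6.26 to 8.65 and CLDN19 from 8.50 to 9.51, all above background in all tumors and not called. CLDN2, CLDN4 and CLDN18 were above background in 3, 1 and 1 tumors, where their highest levels were 5.67, 3.62 and 5.02. Another probe, described in the files as claudin-4 but not named CLDN4, was above background in 35 tumors, ranged from 1.88 to 10.22 and rose by 0.997 ± 0.077 (adjusted p = 7.71e-16). With KRT9, the genes CLDN1, CLDN19, CLDN10 and CLDN18 had the 5 smallest SDs, from 0.11 for KRT9 to 0.44 for CLDN18.

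CLDN5, the claudin of vascular endothelium, ranged from 4.68 to 8.45 (median 6.34) and showed no relation to the keratinocyte score that passed (adjusted p = 0.48). Against an endothelial score, built in the same way from 7 genes such as PECAM1, CDH5 and VWF, 5 member probes rose and 0 fell, where 6.96% of all probes were called. These were CLDN5, which rose by 1.23 ± 0.18 (limma, adjusted p = 2.91e-06), and the 4 PKP4 probes, of which the brightest rose by 0.61 ± 0.15 (adjusted p = 0.0044). With the keratinocyte score as a covariate CLDN5 was the member left, with a slope of 1.24 ± 0.18 (adjusted p = 5.99e-06, 4.54% of all probes called).

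A mast cell score of 5 genes (CMA1, MS4A2, FCER1A, HPGDS and CTSG) had 11 member probes falling with it and 0 rising, against 14.9% of all probes called. They belonged to CLDN5, KRT18, PKP4, KRT24, DSG2, CLDN22, DSC2 and KRT5, the last through probe 5. The slope was -0.84 ± 0.18 for CLDN5 (limma, adjusted p = 3.93e-04) and -1.27 ± 0.31 for KRT18 (adjusted p = 0.0019). No member rose with the mast cell genes. With the keratinocyte score as a covariate CLDN5 alone was called among the members, with a slope of -0.88 ± 0.19 (adjusted p = 8.69e-04, 9.94% of all probes called). Of the 7 endothelial genes 4 fell with the mast cell score and 1 rose. Of the 5 mast cell genes 3 fell with the endothelial score, where 6.96% of all probes were called. The fall of CLDN5 with the mast cell score and its rise with the endothelial score cannot be told apart here.

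**Figure D4:**
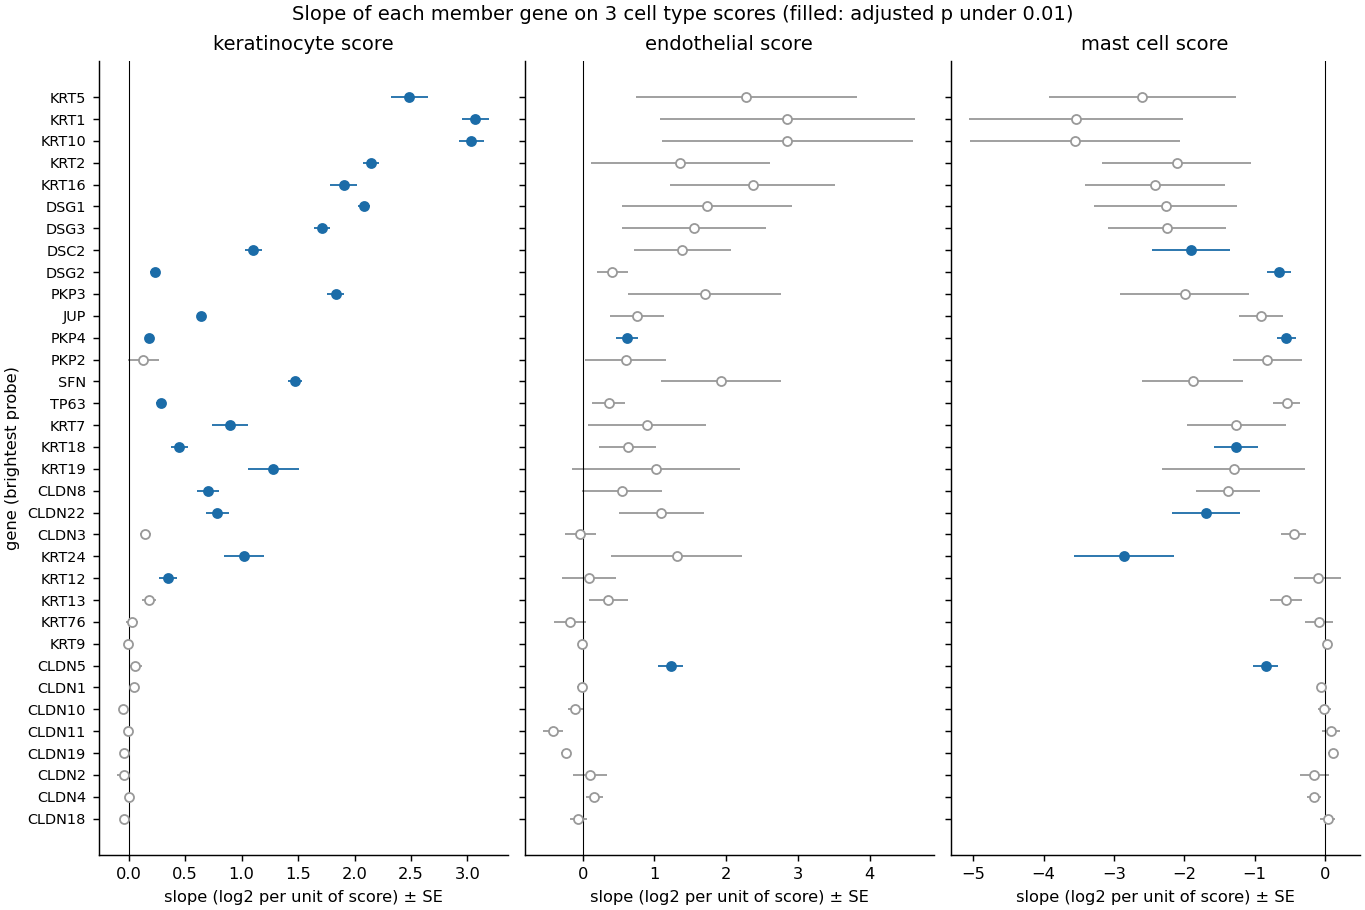
Slope ± SE of the brightest probe of each member gene (log2 units per unit of score) on the keratinocyte, endothelial and mast cell scores over 51 tumors, filled where the adjusted p is under 0.01. Slopes on the keratinocyte score are largest for KRT1 and KRT10, CLDN5 and PKP4 are filled for the endothelial score, and all filled slopes on the mast cell score are negative.

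Several genes of the same family had no probe under the name used to choose members: KRT14, KRT15, KRT17, KRT8, KRT71, KRT25, DSC1, DSC3, DSP, PKP1, IVL, LOR, FLG and CDH1. Probes described in the scanner files as such genes, or paired with them by gene ID, did not all move alike. A probe described as keratin 14 went from 9.31 to 17.77 and rose with the score by 1.29 ± 0.04 (limma, adjusted p = 1.23e-34), another for keratin 14, above background in 19 tumors, from 1.93 to 8.60, one for keratin 15 from 1.81 to 16.77, one for keratin 17 from 1.77 to 14.09 and one for involucrin from 1.91 to 15.11. Desmoplakin, the linker of the desmosomal plaque, ranged from 4.35 to 15.18 and rose by 1.72 ± 0.05 (adjusted p = 1.84e-34). A probe for E-cadherin ranged from 1.75 to 11.15 and rose by 0.999 ± 0.092 (adjusted p = 6.94e-13), whereas one described as an E-cadherin fragment stayed between 1.99 and 6.27 and did not pass (slope 0.11 ± 0.05, adjusted p = 0.059). A probe for cytokeratin 8, the partner of KRT18, was above background in all 51 tumors, from 7.05 to 15.40, with a slope of 0.67 ± 0.14 (adjusted p = 1.35e-04).

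The keratinocyte score was set against the scores of 11 other lists. The sebaceous gland score rested on 3 of 8 listed genes (FAR2, SOAT1 and MOGAT1). The hair follicle score rested on 4 of 13 (MSX2, LHX2, SOX9 and GATA3), each above background in all 51 tumors. The skeletal muscle score rested on 4 of 6 genes, with ACTA1 and MYLPF above background in all 51 tumors, MYH2 in 15 and TNNT3 in 9. These did not move alike, with r to the keratinocyte score of -0.49 for ACTA1, 0.04 for MYLPF, 0.25 for MYH2 and 0.05 for TNNT3. Over 51 tumors the keratinocyte score went with the melanocyte score (r = 0.75, Spearman rho = 0.73, permutation p = 1e-05 for each, the smallest that 100000 resamples can give, adjusted p = 0.00011). It also went with the sebaceous gland score (r = 0.45, permutation p = 0.00085, adjusted p = 0.0039; rho = 0.46, p = 0.00095, adjusted 0.0035) and the hair follicle score (r = 0.42, permutation p = 0.0024, adjusted p = 0.0067; rho = 0.47, p = 0.00057, adjusted 0.0031). It went against the macrophage score (r = -0.44, permutation p = 0.0011, adjusted p = 0.0039; rho = -0.44, p = 0.0016, adjusted 0.0044) and the mast cell score (r = -0.35, permutation p = 0.0096, adjusted p = 0.021; rho = -0.41, p = 0.0033, adjusted 0.0072). Without the 2 tumors farthest from the median score these were 0.73, 0.42, 0.39, -0.40 and -0.31, the last no longer past the threshold of 0.05 (adjusted p = 0.065). For the skeletal muscle score rho alone passed (rho = 0.35, permutation p = 0.013, adjusted 0.023; r = 0.13, p = 0.35, adjusted 0.43). The endothelium, fibroblast, T cell, adipocyte and proliferation scores did not pass by either measure, with r between -0.01 and 0.24 and adjusted p between 0.17 and 0.96 for r. With the keratinocyte score built from the basement membrane genes alone, the endothelium score (r = 0.46, permutation p = 0.00077, adjusted p = 0.0021; rho = 0.45, p = 0.0011, adjusted 0.0031) and the proliferation score (r = 0.32, p = 0.021, adjusted p = 0.039; rho = 0.31, p = 0.027, adjusted 0.043) did pass. For the mast cell score r was then -0.56 (permutation p = 3e-05, adjusted p = 0.00011). With the differentiation genes alone the mast cell score did not pass (r = -0.30, permutation p = 0.030, adjusted p = 0.067; rho = -0.26, p = 0.069, adjusted 0.13). None of the 11 r values passed among the 23 tumors over 1 or the 24 under -1 alone, and by rho the fibroblast score alone passed, under -1 (rho = 0.57, permutation p = 0.0038, adjusted 0.042). For the macrophage score r was -0.53 over 1 (permutation p = 0.0081, adjusted p = 0.089) and 0.09 under -1 (p = 0.69). For the melanocyte score r was 0.24 over 1 (permutation p = 0.28) and -0.11 under -1 (p = 0.63), and the pooled melanocyte relation did not hold within either end.

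Of the genes on the other lists, the counts called with the keratinocyte score were 3 rising of 5 melanocyte genes, 1 rising of 3 sebaceous gland genes, 1 falling of 7 macrophage genes, 1 falling of 4 skeletal muscle genes, and 0 of the 4 hair follicle, 5 mast cell, 7 endothelium, 6 fibroblast, 4 T cell, 4 adipocyte and 4 proliferation genes. Of all probes, 15% were called in the same fit. The 26 genes of the score itself were all called, which follows from its construction.

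Sex, breed and age gave no call among the members. Between female and male dogs 0 of the 53 member probes were called at a fold of at least 2 and an adjusted p under 0.01, against 0.0252% of all probes, and 6 had an unadjusted p under 0.05, as had 2708 of the 43603 probes. The smallest p belonged to CLDN1, at 9.35 to 10.02 (median 9.72) in females and 9.02 to 9.81 (median 9.49) in males, with a difference, female minus male, of 0.22 ± 0.07 (limma, p = 0.0023, adjusted p = 0.78). KRT18, which had an outlier spot in 1 tumor that was left out, ran from 10.81 to 15.93 (median 13.28) in 29 females and from 9.90 to 15.09 (median 12.15) in males, a difference of 1.14 ± 0.42 (p = 0.0098, adjusted p = 0.79). KRT7 had medians of 8.15 and 5.18 and a difference of 1.99 ± 0.87 (p = 0.027, adjusted p = 0.79). The sexes overlapped over most of their range in all 3 genes.

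Between Boxer and Labrador Retriever, Boxer and Crossbred, and Labrador Retriever and Crossbred tumors 0 member probes were called, against 0.0550%, 0.0115% and 0.0115% of all probes, and 1 had an unadjusted p under 0.05 in each, as had 2050, 1738 and 1337 of the 43603 probes. KRT1 ran from 3.30 to 17.99 (median 15.84) in 9 Boxer tumors, from 2.15 to 17.31 (median 15.54) in 9 Labrador Retriever tumors and from 2.03 to 17.50 (median 4.52) in 14 Crossbred tumors. The difference for KRT1, Boxer minus Crossbred, was 4.52 ± 2.78 (limma, p = 0.11, adjusted p = 0.9997), since each breed held tumors at both ends. With age 0 of 53 member probes and 0.00% of all probes were called by limma, and 0 member probes had an unadjusted p under 0.05, as had 1061 of all probes.

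The keratinocyte score did not separate these groups either. Its mean was 0.18 ± 2.22 (SD, n = 30) in females and -0.47 ± 2.09 (SD, n = 19) in males, a difference of 0.65 (2-sided permutation p = 0.31). Boxer tumors had a mean of 0.75 ± 2.37 (SD, n = 9), Labrador Retriever tumors -0.13 ± 1.88 (SD, n = 9) and Crossbred tumors -0.51 ± 2.22 (SD, n = 14). The adjusted p over the 4 comparisons, exact permutation tests for the breeds, was between 0.51 and 0.67.

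**Figure D5:**
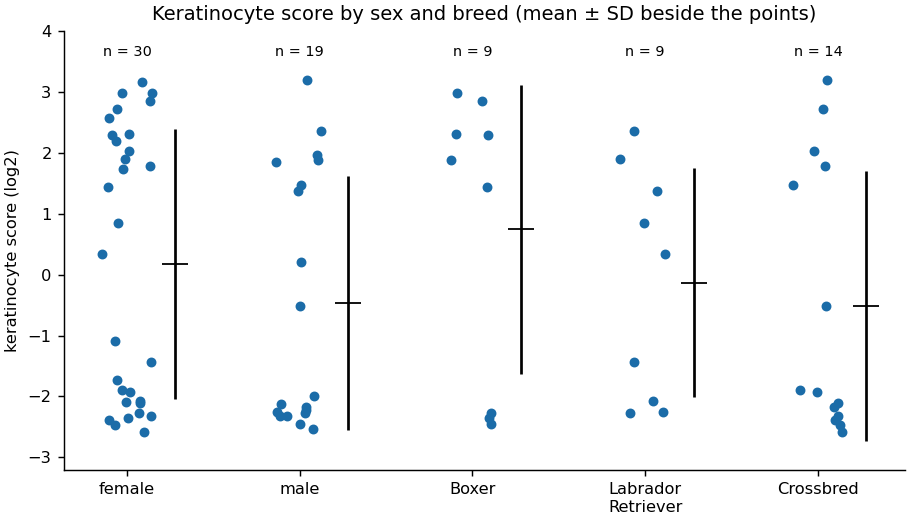
Keratinocyte score (vertical axis, log2) of each tumor by sex and for the 3 breeds with over 2 tumors, 1 point per tumor, with mean ± SD beside the points. Each group holds tumors near -2 and tumors near 2 or above.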

How the data were processed

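The authors deposited a scanner file of 1 one-color Agilent Canine V2 array for each of 51 tumors, with an intensity per spot. Their technical replicate arrays of some samples were not analysed here. The authors also deposited a table of quantile-normalized intensities, used as an alternative; its linear scale was read from the values. Processed signals were quantile-normalized and set to log2, spots of 1 probe averaged, and control spots and outlier flags left out. Probes were tested with limma 3.58.1 (R 4.3.3), with Benjamini-Hochberg adjustment over all 43603 probes. Slopes were called at an adjusted p under 0.01, and sex and breed differences also at a fold of at least 2. P-values measure the spread between tumors, and the number of arrays limits the precision. A score used the brightest probe of each listed gene that was above background on at least 5 arrays. Scores were compared by permutation (Python 3.11.15, scipy 1.17.1). The members, the lists, and the rule that names every member by its brightest probe were chosen with earlier results of these data known.

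On simulated data, of 200 probes given a slope of 0.5 on the keratinocyte score 198 were recovered, and of 200 given a difference of 1.5 between female and male, or between Boxer and Labrador Retriever, 190 and 135. The simulated spread was that left after fitting the keratinocyte score, and the 200 were drawn from all probes. The sex and breed fits held no such covariate, so these recoveries do not apply to members that vary with the score. For KRT1 the SE was 1.98 for female minus male and 3.07 for Boxer minus Labrador Retriever. Alternatives were another scaling, background correction or filter, slide or scan session as a block, and tumors left out.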

Additional observations from a re-analysis of the deposited data

Results flagged for a closer look

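Within breeds, 6 of 70 tests of a member gene or the keratinocyte score in the Boxer or the Labrador Retriever tumors, 9 of each, had 1 tumor far from the rest, by the gap to its nearest neighbor over the range of the group. Such a rule is meant to pick out about 1 group in 20 by chance alone. Here the tests share tumors and some genes lay at background, so the chance rate is not known. Among Labrador Retriever tumors, KRT12 was at 7.29 in T83 with the next tumor at 3.54, CLDN8 at 5.95 in T101 with the next at 3.51, and CLDN18 at 5.02 in T107 with the next at 2.002, each well above background in the tumor named. The other 3 were not above background on the array named: KRT9 at 2.43 in T83 (next 2.10) among Labrador Retriever tumors, and KRT13 at 3.88 in T84 (next 2.41) and KRT9 at 2.10 in T12 (next 1.97) among Boxer tumors. The cause of these gaps was not tested.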

How the results depend on the processing

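Of the counts of called members and of related lists, 95 stayed within 1.5 times under the alternatives and 18 did not. Members called with the keratinocyte score numbered 17 among tumors over 1 and 3 among those under -1, where the slopes of KRT12 (-0.0031) and TP63 (-0.0212) turned. Members called with the endothelial score numbered 2 with normexp background correction, and 1 each with slide as a fixed block, scan session as a fixed block, the keratinocyte score as a covariate, or without the 2 tumors farthest from the median score (T9 and T51). With the mast cell score 1 was left under the keratinocyte covariate. For KRT16 the count was 2 with 75th percentile scaling, normexp or the filter of 10 arrays, and 0 with the authors' table or slide as a fixed block. For KRT24 it was 2 with the authors' table, the filter of 10 arrays or slide as a fixed block. Score correlations past the threshold numbered 0 over 1 and 0 under -1. The T cell r became 0.0247 with 75th percentile scaling. Over 1, r became -0.0713 (endothelium), -0.36 (fibroblast) and 0.19 (T cell), and under -1 it became -0.11 (melanocyte), 0.0895 (macrophage) and 0.0858 (T cell). The score difference of Labrador Retriever minus Crossbred became -0.16 with the basement membrane list alone. The cause was not tested. Sex, breed and age called 0 members under each alternative run. The fits by score range, scan session, keratinocyte covariate and the levels of KRT7, KRT16 and KRT24 were added after seeing the data. Levels of genes near background, such as TP63, DSG2 and KRT12, are limited by signal over background. No paired analysis was possible because the labels give 1 tissue group and no shared replicate numbers.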
